A study of Homo sapiens with 16 samples.

Results

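The transcripts of 30 genes of cholesterol synthesis and uptake were followed in NCI-H1944, a cell line from a human lung adenocarcinoma, after a pulse of an inhibitor of the mitotic kinase MPS1. The genes were chosen by name, as enzymes of the pathway, its sterol sensors and transcription factors, and genes of sterol transport, efflux and oxysterol synthesis. All 30 were found once among the 60612 genes of the deposited count table, and all 30 were among the 17950 genes with enough counts to be tested. The cells were labelled STING knockout or MAVS knockout, each made with a guide against that gene, or STING/MAVS knockout (DKO), or were the control (SCR), labelled WT. Each of these 4 lines was treated with MPS1i or DMSO, which gave 8 groups of 2 libraries and 16 libraries in all. MPS1i was BAY-1217389, given at 100 nM for 48 h, after which it was washed out and the cells were cultured for a further 24 h. DMSO, the solvent, was the control. The cells of all groups came from the same tumour line, and the labels do not say whether an edited line was 1 clone or a pool, or whether replicates were separate cultures. Values of p therefore measure the spread between these libraries. The series states as its question how far the response to pulsed MPS1 inhibition needs STING, MAVS or the pair of them.

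Cells make cholesterol from acetyl-CoA. The mevalonate pathway builds farnesyl diphosphate, squalene is made from it and closed to lanosterol, and a last set of enzymes turns lanosterol into cholesterol. The supply is held steady by feedback. When sterols in the endoplasmic reticulum membrane are low, SCAP carries SREBP proteins (genes SREBF1 and SREBF2) to the Golgi, where they are cut and released to switch on genes of synthesis and uptake. When sterols are plentiful, INSIG proteins hold SCAP back, and oxysterols activate LXR receptors, which switch on the exporters ABCA1 and ABCG1 and the LDL receptor ligase MYLIP. STING relays the sensing of cytosolic DNA and MAVS that of cytosolic RNA. CH25H, which makes 25-hydroxycholesterol, is known as an interferon-induced gene.

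Total counts per library ran from 19893784 to 49769938. Levels are given in CPM, counts divided by each library's TMM-scaled total, and were not compared between genes, since the deposited lengths span whole genes rather than exons. A log2 fold change is given ± its standard error. Genes were called at an adjusted p under 0.05 in the quasi-likelihood test of edgeR, adjusted by Benjamini-Hochberg over the 17950 genes, the test behind every adjusted p below. The STING transcript (STING1) averaged 3.74 ± 0.0573 CPM in the STING line and 4.86 ± 0.0461 CPM in the DKO line, against 8.27 ± 0.0317 CPM in SCR cells, all under DMSO (SD, n = 2 each). The MAVS transcript averaged 195 ± 0.890 CPM in the MAVS line and 215 ± 9.83 CPM in the DKO line, against 186 ± 4.28 CPM in SCR cells under DMSO. An edited gene can keep its transcript, so this count does not test the MAVS label, and the lines are named by their labels throughout. After MPS1i all 8 genes of a proliferation list fell in each of the 4 lines, with a median log2 change of -0.76 in the STING line, -0.88 in the MAVS line, -0.85 in the DKO line and -1.09 in SCR cells. All 6 interferon response genes rose in the STING line, the MAVS line and SCR cells and 3 of 6 rose in the DKO line, with median log2 changes of 3.77 in the STING line, 2.27 in the MAVS line, 0.67 in the DKO line and 3.31 in SCR cells. The part of these changes in the results below was not tested. Epithelial markers of lung summed to between 2533 and 3618 CPM in every library, although NKX2-1 was too low to be tested, whereas 6 immune markers summed to at most 1.89 CPM and 6 stromal and endothelial markers to at most 3.44 CPM.

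In SCR cells, 9 of the 30 genes rose after MPS1i and 9 fell, and 12 did not pass the test. Of all tested genes, 26.0% rose, 24.0% fell and 50% were called in all, so the share of members called, 9 of 30 in each direction, was close to the background. The median log2 change of the 29 genes other than CH25H was -0.07, against 0.03 over all tested genes. The members did not move as a block: HMGCS1, STARD4, INSIG1, SQLE, MSMO1, IDI1, HSD17B7, MYLIP and CH25H rose, and EBP, PMVK, ABCG1, FDPS, TM7SF2, NPC2, SREBF1, DHCR7 and ACAT2 fell. CH25H had few counts and passed the count filter through its treated libraries, and 8 of the other 29 genes rose. The 18 calls passed under every alternative setting in which the gene was tested, including the loss of any 1 library. RNA was taken from whole cultures, so a change in the mix of cell states and a change of RNA in each cell cannot be told apart.

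Among the 7 mevalonate pathway genes, HMGCS1, the synthase that makes HMG-CoA, stood at 879.6 and 868 CPM after MPS1i and at 410.4 and 403 CPM after DMSO in SCR cells. Both treated libraries were far above both controls, and the log2 change was 1.10 ± 0.04 (adjusted p = 3e-17). IDI1, which isomerises isopentenyl diphosphate, had 419 and 429 CPM after MPS1i and 357 and 373 CPM after DMSO. It rose by less, 0.22 ± 0.05 on the log2 scale (adjusted p = 0.0019), and its groups did not overlap. Other enzymes of the same stretch fell. FDPS, which makes farnesyl diphosphate, had 103 and 102 CPM after MPS1i and 148 and 147 CPM after DMSO, a log2 change of -0.53 ± 0.05 (adjusted p = 6.4e-09). PMVK, phosphomevalonate kinase, had 6.72 and 5.85 CPM after MPS1i and 10.6 CPM in both DMSO libraries, a log2 change of -0.76 ± 0.12 (adjusted p = 5.8e-06). In both genes the treated libraries were the lower ones. ACAT2, the cytosolic thiolase at the entry, fell by 0.19 ± 0.05 (adjusted p = 0.0043), and shares its locus with TCP1 and SOD2 on the opposite strand, so reads of these genes cannot be told apart if strand was not used in counting. The kinase MVK (-0.24 ± 0.11) and the decarboxylase MVD (-0.07 ± 0.10) did not pass the test.

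Of the 3 genes from squalene to lanosterol, only SQLE, squalene epoxidase and a rate-limiting step of the pathway, was called in SCR cells. It had 432 and 451 CPM after MPS1i and 337 and 346 CPM after DMSO, with no overlap and a log2 change of 0.37 ± 0.04 (adjusted p = 4.7e-08). The squalene synthase FDFT1 (0.01 ± 0.05) and the lanosterol synthase LSS (-0.17 ± 0.08) did not pass the test. Among the 8 genes from lanosterol to cholesterol, MSMO1, the C4-methylsterol oxidase, had 295 and 322 CPM after MPS1i and 238 and 254 CPM after DMSO, and rose by 0.33 ± 0.05 (adjusted p = 4.5e-06). HSD17B7, the 3-ketosterol reductase that acts after it, rose by 0.44 ± 0.09 (adjusted p = 0.00032). EBP, the sterol isomerase, was the member that fell most in SCR cells, with 15.2 and 15.8 CPM after MPS1i and 29.97 and 29.2 CPM after DMSO. Its log2 change was -0.93 ± 0.07 (adjusted p = 2.3e-11). TM7SF2, a sterol C14 reductase, fell by 0.52 ± 0.11 (adjusted p = 0.00027), and DHCR7, the last reductase, fell by 0.36 ± 0.06 (adjusted p = 3.2e-05). CYP51A1 (0.01 ± 0.05), NSDHL (0.18 ± 0.09) and SC5D (0.04 ± 0.06) were not called. Enzymes that act one after another thus moved in opposite directions in the same libraries.

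Of the 5 sterol-sensing genes, INSIG1, itself a target of SREBP, had 407 and 420.1 CPM after MPS1i and 296 and 307 CPM after DMSO in SCR cells, a log2 change of 0.45 ± 0.05 (adjusted p = 5.4e-09). SREBF1, which encodes SREBP-1, had 116 and 106 CPM after MPS1i and 152 and 135 CPM after DMSO, a log2 change of -0.37 ± 0.09 (adjusted p = 0.0029). The groups of both genes stood apart, INSIG1 upward and SREBF1 downward. SREBF2 (-0.12 ± 0.05), SCAP (-0.07 ± 0.07) and INSIG2 (-0.17 ± 0.10) were not called. The SREBF1 locus overlaps RAI1 on the opposite strand.

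Of the 7 transport, efflux and oxysterol genes, STARD4, which carries cholesterol between membranes and is an SREBP target, had 367 and 388 CPM after MPS1i and 215 and 232 CPM after DMSO in SCR cells. The treated libraries were the higher ones, with a log2 change of 0.76 ± 0.05 (adjusted p = 2e-12). MYLIP rose by 0.69 ± 0.15 (adjusted p = 0.00038). ABCG1, an exporter of sterols to lipoproteins, had 4.08 and 5.19 CPM after MPS1i and 7.95 and 6.97 CPM after DMSO, a log2 change of -0.68 ± 0.14 (adjusted p = 0.00019). NPC2, which hands cholesterol to NPC1 in the lysosome, had 50.8 and 48.4 CPM after MPS1i and 65.0 and 66.5 CPM after DMSO, a log2 change of -0.41 ± 0.06 (adjusted p = 1.2e-06). Neither gene's groups overlapped. ABCA1 (0.13 ± 0.10) and NPC1 (-0.05 ± 0.04) were not called, so MYLIP rose, ABCG1 fell and ABCA1 was not called, although all 3 are known LXR targets. CH25H had few counts and is described with them further on.

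**Figure D1:**
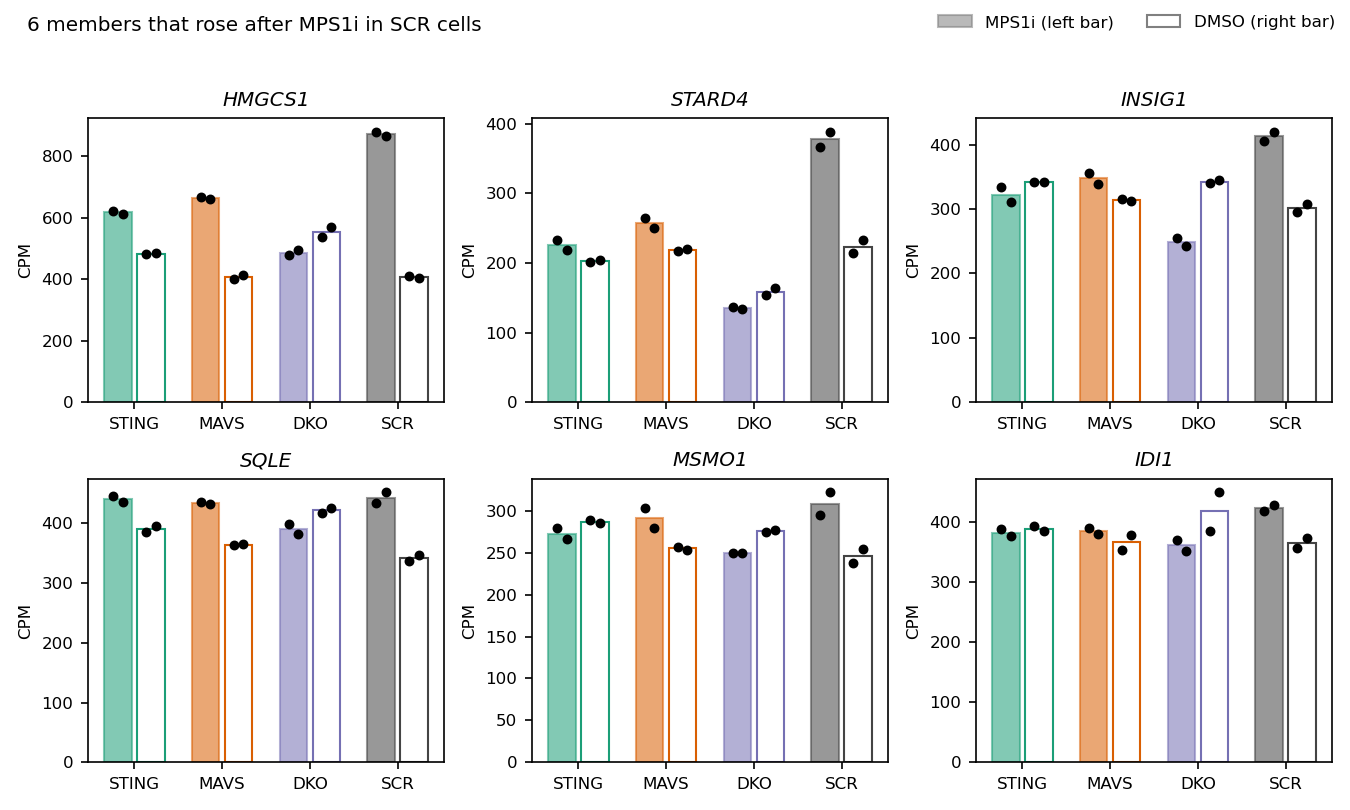
Level in CPM (y axis, from 0) of 6 genes that rose after MPS1i in SCR cells, in the STING line, the MAVS line, the DKO line and SCR cells. Filled bars are MPS1i means, open bars DMSO means, and points the 2 libraries of each group. HMGCS1 reached 879.6 and 868 CPM in the SCR MPS1i libraries, whereas in the DKO line its MPS1i libraries, at 478 and 496 CPM, were below its DMSO libraries.

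Promoter sequence was set beside these directions for the 4 genes HMGCS1, STARD4, INSIG1 and MSMO1, which rose in SCR cells, for EBP, which fell, and for SREBF2, the only gene of the list whose window held a strict sterol regulatory element. The windows are from RefSeq on GRCh38.p14, run from 250 bases before to 50 after the annotated start, and were read on the strand of the gene. They lie at chr5:43313363-43313662 (minus strand, HMGCS1), chr5:111512486-111512785 (minus, STARD4), chr7:155297628-155297927 (plus, INSIG1), chr4:165327419-165327718 (plus, MSMO1), chrX:48521558-48521857 (plus, EBP) and chr22:41832855-41833154 (plus, SREBF2). Capitals mark CCAAT, the box bound by NF-Y, a known partner of SREBP at sterol-regulated promoters, or its complement ATTGG, and in SREBF2 also the match to TCACNCCAC.
HMGCS1: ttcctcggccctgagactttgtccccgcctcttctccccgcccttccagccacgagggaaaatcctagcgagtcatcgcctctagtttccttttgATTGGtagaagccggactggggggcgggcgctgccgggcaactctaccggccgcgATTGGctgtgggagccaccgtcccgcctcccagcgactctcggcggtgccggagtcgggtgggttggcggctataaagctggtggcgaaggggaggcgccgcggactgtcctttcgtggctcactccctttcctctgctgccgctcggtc
STARD4: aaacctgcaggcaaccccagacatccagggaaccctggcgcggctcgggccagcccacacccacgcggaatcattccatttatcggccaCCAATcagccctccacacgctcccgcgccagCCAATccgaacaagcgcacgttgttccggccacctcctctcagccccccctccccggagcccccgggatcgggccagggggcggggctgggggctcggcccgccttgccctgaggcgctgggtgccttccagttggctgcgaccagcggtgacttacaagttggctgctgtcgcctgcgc
INSIG1: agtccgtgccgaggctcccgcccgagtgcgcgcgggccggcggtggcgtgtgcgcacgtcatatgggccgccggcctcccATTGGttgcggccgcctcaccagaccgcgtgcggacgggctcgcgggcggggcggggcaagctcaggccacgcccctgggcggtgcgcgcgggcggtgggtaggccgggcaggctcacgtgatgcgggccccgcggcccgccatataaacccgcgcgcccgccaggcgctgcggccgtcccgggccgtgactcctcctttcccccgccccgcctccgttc
MSMO1: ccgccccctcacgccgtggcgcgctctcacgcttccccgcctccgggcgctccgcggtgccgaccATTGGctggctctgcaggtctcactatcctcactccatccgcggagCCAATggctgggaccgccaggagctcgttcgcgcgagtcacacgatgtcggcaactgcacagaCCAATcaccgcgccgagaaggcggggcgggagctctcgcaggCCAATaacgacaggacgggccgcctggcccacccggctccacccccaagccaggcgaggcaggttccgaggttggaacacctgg
EBP: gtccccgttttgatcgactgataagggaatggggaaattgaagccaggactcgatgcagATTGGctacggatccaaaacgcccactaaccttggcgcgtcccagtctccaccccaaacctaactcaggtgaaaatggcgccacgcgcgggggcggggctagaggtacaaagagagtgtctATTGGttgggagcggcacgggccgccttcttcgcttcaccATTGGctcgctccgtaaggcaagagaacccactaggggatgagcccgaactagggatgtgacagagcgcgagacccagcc
SREBF2: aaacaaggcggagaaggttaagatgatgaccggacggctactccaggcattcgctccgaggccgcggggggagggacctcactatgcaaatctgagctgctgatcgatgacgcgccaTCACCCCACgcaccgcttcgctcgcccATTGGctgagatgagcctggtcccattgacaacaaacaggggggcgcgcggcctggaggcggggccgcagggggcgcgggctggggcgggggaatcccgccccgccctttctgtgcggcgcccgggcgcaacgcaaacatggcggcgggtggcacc

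The CCAAT box was found on either strand in 18 of the 26 members with a window (69.2%), against 39.7% of the 27305 genes in the reference table. It stood in 7 of 8 members that rose in SCR cells, in 5 of 7 that fell and in 6 of 11 that were not called, so these letters did not separate the directions. HMGCS1, which rose, and EBP, which fell, both carry it, 2 times in HMGCS1 and 3 times in EBP, and MSMO1 carries it 4 times. TCACNCCAC matched 1 of 26 members (3.85%), SREBF2, against 1.39% of all genes. The LXR element (AGGTCA, any 4 bases, AGGTCA) and the interferon-stimulated element (GAAA, any 2 bases, GAAA), both searched on either strand, matched 0 of 26 members, against 0.0256% and 4.38% of all genes with a window. ABCG1, ACAT2, FDFT1 and SQLE had no window in the table. These matches are letters in a window and carry no evidence on binding.

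In the DKO line, 2 of the 30 genes rose after MPS1i and 12 fell, against 6.53% of all tested genes that rose and 8.22% that fell (14.8% called in all). None of the 9 genes that rose in SCR cells rose in the DKO line: 4 of them fell and 5, among them CH25H with counts near the floor, were not called. Of the 9 that fell in SCR cells, 3 fell, 5 were not called and 1, ABCG1, rose. The same split was not counted over all tested genes. As only 6.53% of all tested genes rose in the DKO line, the lack of rises among 9 genes is not read as particular to them. The DKO and SCR effects share no library. The median log2 change of the 29 genes other than CH25H was -0.14 in the DKO line, against 0.00 over all tested genes. The calls of ACAT2, FDPS, FDFT1, LSS, EBP, INSIG1 and STARD4 passed under every alternative, whereas the other 7 calls did not.

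HMGCS1 had 478 and 496 CPM after MPS1i and 536 and 570.0 CPM after DMSO in the DKO line, a log2 change of -0.18 ± 0.04 (adjusted p = 0.0034). Both treated libraries were below both controls, but the call was lost without DKO MPS1i replicate 1 (-0.16, adjusted p = 0.066). IDI1 had 371 and 352 CPM after MPS1i and 386 and 449.7 CPM after DMSO (-0.21 ± 0.06, adjusted p = 0.011). Its call was lost without DKO DMSO replicate 2 (-0.10) or DKO MPS1i replicate 2 (-0.18). FDPS had 114 and 108 CPM after MPS1i and 144 and 126 CPM after DMSO (-0.28 ± 0.05, adjusted p = 0.00055). ACAT2 fell by 0.50 ± 0.06 (adjusted p = 3.9e-07), more than any other called member in this line. PMVK, with 11.2 and 8.94 CPM after MPS1i and 9.79 and 9.05 CPM after DMSO, was not called (0.12 ± 0.12), and its groups overlapped. MVK changed by -0.47 ± 0.12 (adjusted p = 0.0065), a call lost without DKO DMSO replicate 1 (-0.28), DKO MPS1i replicate 1 (-0.50) or DKO MPS1i replicate 2 (-0.45).

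Further down the pathway, FDFT1 fell by 0.22 ± 0.05 (adjusted p = 0.0013) and LSS by 0.37 ± 0.08 (adjusted p = 0.0015) in the DKO line, neither of which was called in SCR cells. SQLE, with 399 and 381 CPM after MPS1i and 416 and 425 CPM after DMSO, was not called (-0.11 ± 0.04, adjusted p = 0.083), although its groups did not overlap. MSMO1 had 249 CPM in both MPS1i libraries and 275 and 276 CPM after DMSO (-0.14 ± 0.05, adjusted p = 0.053). Neither of these SCR-rising genes was higher after the pulse in any library of the DKO line. EBP had 17.8 and 19.2 CPM after MPS1i and 24.0 and 24.1 CPM after DMSO, and fell by 0.39 ± 0.07 (adjusted p = 0.00054). CYP51A1 changed by -0.18 ± 0.05 (adjusted p = 0.015), a call lost without DKO DMSO replicate 2 (-0.11), DKO MPS1i replicate 1 (-0.19) or DKO MPS1i replicate 2 (-0.17).

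INSIG1 had 256 and 242 CPM after MPS1i and 341 and 345 CPM after DMSO in the DKO line, a log2 change of -0.46 ± 0.05 (adjusted p = 6.2e-08). It thus fell in this line by about the size of its rise in SCR cells. SREBF1 had 99.8 and 103 CPM after MPS1i and 127 and 103 CPM after DMSO and was not called (-0.18 ± 0.09). STARD4 had 136 and 134 CPM after MPS1i and 153 and 163 CPM after DMSO (-0.23 ± 0.05, adjusted p = 0.0029). NPC2, with 70.6 and 70.9 CPM after MPS1i and 73.0 and 73.5 CPM after DMSO, was not called (-0.05 ± 0.06). STARD4 and NPC2 libraries did not overlap between treatments, but the gap in NPC2 was small. ABCG1 had 7.15 and 5.82 CPM after MPS1i and 4.25 and 5.05 CPM after DMSO, and was called higher (0.49 ± 0.15, adjusted p = 0.029). This call was lost without DKO MPS1i replicate 1 (0.31) or DKO DMSO replicate 1 (0.37). ABCA1 was called higher too (0.28 ± 0.09, adjusted p = 0.044), and lost its call without DKO MPS1i replicate 1 (0.27), DKO MPS1i replicate 2 (0.29) or DKO DMSO replicate 1 (0.20). Both of these rises were also lost with every library kept, under the DESeq2 Wald test or with only the compared groups. NPC1, the lysosomal membrane transporter, was called lower (-0.14 ± 0.04, adjusted p = 0.015), a call lost without DKO MPS1i replicate 2, again at -0.14.

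**Figure D2:**
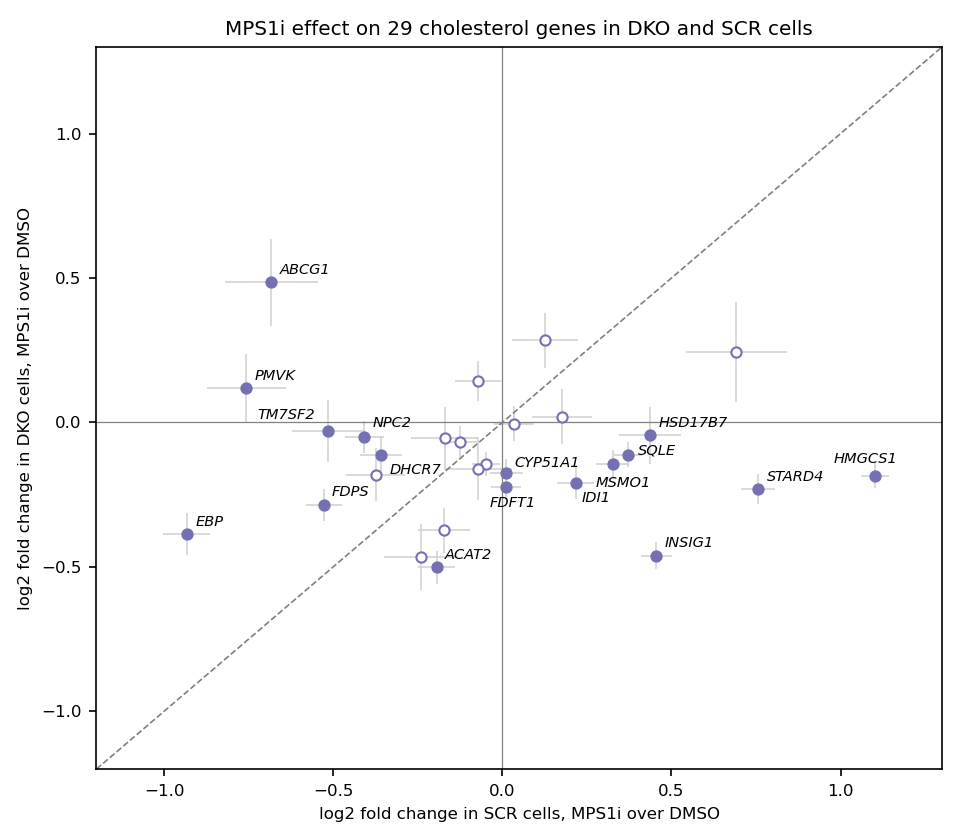
Log2 fold change after MPS1i over DMSO in the DKO line (y axis) against that in SCR cells (x axis) for the 29 genes other than CH25H, with bars of 1 standard error. Filled points are genes whose treatment effect was called different between the DKO line and SCR cells, and the dashed line marks equal effects. HMGCS1 lies at 1.10 in SCR and -0.18 in the DKO line, and ABCG1 at -0.68 in SCR and 0.49 in the DKO line.

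In the STING line, 7 of the 30 genes rose and 5 fell, against 15.5% of all tested genes that rose and 13.9% that fell (29.4% called). HMGCS1 and MYLIP rose and ACAT2, FDPS and EBP fell under every alternative, and CH25H rose under each in which it was tested. HMGCS1 had 623 and 611 CPM after MPS1i and 481 and 485 CPM after DMSO (0.35 ± 0.04, adjusted p = 4.2e-07), and FDPS had 119.7 and 124 CPM after MPS1i and 150.4 and 143 CPM after DMSO (-0.27 ± 0.05, adjusted p = 0.00045). EBP had 20.3 and 20.8 CPM after MPS1i and 27.7 and 27.3 CPM after DMSO (-0.42 ± 0.07, adjusted p = 8.8e-05). In each of these genes the groups stood apart in the direction seen in SCR cells. ACAT2 fell by 0.29 ± 0.06 (adjusted p = 0.00028) and MYLIP rose by 0.72 ± 0.17 (adjusted p = 0.0024). SQLE, with 445 and 435 CPM after MPS1i and 385 and 395 CPM after DMSO, was called (0.17 ± 0.04, adjusted p = 0.0029) except without STING DMSO replicate 1 (0.14). STARD4, with 233 and 219 CPM after MPS1i and 201 and 204 CPM after DMSO, was called (0.16 ± 0.05, adjusted p = 0.021), but not without STING DMSO replicate 1 (0.14), STING DMSO replicate 2 (0.15) or STING MPS1i replicate 1 (0.11).

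The other members with values in every library were not called in the STING line. IDI1 had 388 and 377 CPM after MPS1i and 393 and 385 CPM after DMSO, MSMO1 279 and 267 CPM after MPS1i and 289 and 285 CPM after DMSO, and INSIG1 334 and 312 CPM after MPS1i and 343 and 342 CPM after DMSO. The treated libraries of MSMO1 and INSIG1 were the lower ones and those of IDI1 overlapped the controls. PMVK had 8.92 and 9.07 CPM after MPS1i and 10.1 and 8.95 CPM after DMSO, and SREBF1 had 122 and 134 CPM after MPS1i and 141 and 136 CPM after DMSO. ABCG1 had 8.77 and 8.0 CPM after MPS1i and 6.78 and 7.54 CPM after DMSO, and NPC2 had 69.3 and 69.4 CPM after MPS1i and 74.7 and 72.0 CPM after DMSO. The PMVK groups overlapped, SREBF1 and NPC2 were lower and ABCG1 was higher in both treated libraries, without passing the test. NSDHL, called at 0.41 ± 0.10 (adjusted p = 0.0023), lost its call without STING DMSO replicate 2 (0.34) or STING MPS1i replicate 2 (0.29). ABCA1 (0.26 ± 0.10, adjusted p = 0.049) lost its call without STING DMSO replicate 1 (0.14), STING MPS1i replicate 1 (0.23) or STING MPS1i replicate 2 (0.28). This call was also lost with every library kept, with DESeq2 size factors, no filter or the DESeq2 Wald test. The fall of CYP51A1 (-0.14 ± 0.05, adjusted p = 0.033) was lost without STING DMSO replicate 2 or STING MPS1i replicate 2, at -0.12 in both fits. That of NPC1 (-0.14 ± 0.04, adjusted p = 0.012) was lost without STING DMSO replicate 1 (-0.13) or STING MPS1i replicate 1 (-0.14).

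In the MAVS line, 8 of the 30 genes rose and 9 fell, against 17.1% of all tested genes that rose and 16.3% that fell (33.4% called). HMGCS1 had 668 and 661 CPM after MPS1i and 399.9 and 413 CPM after DMSO (0.71 ± 0.04, adjusted p = 8e-13), and SQLE had 435 and 432 CPM after MPS1i and 363 and 364 CPM after DMSO (0.25 ± 0.04, adjusted p = 3.3e-05). STARD4 had 265 and 249.5 CPM after MPS1i and 217 and 219 CPM after DMSO (0.24 ± 0.05, adjusted p = 0.00065). These 3 genes, with no overlap between treatments, rose under every alternative. FDPS had 105 and 107 CPM after MPS1i and 143 and 146 CPM after DMSO (-0.45 ± 0.05, adjusted p = 3.7e-07), and EBP had 17.9 and 18.2 CPM after MPS1i and 27.5 and 28.7 CPM after DMSO (-0.64 ± 0.07, adjusted p = 1.2e-07). NPC2 had 55.8 and 59.9 CPM after MPS1i and 70.9 and 79.1 CPM after DMSO (-0.37 ± 0.06, adjusted p = 1.3e-05). These and LSS (-0.39 ± 0.08, adjusted p = 0.00037) fell under every alternative.

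The other 10 calls in the MAVS line were each lost without at least 1 library. MSMO1 had 303 and 279 CPM after MPS1i and 257 and 254 CPM after DMSO (0.19 ± 0.05, adjusted p = 0.0045), and lost its call without MAVS MPS1i replicate 1 (0.11) or MAVS DMSO replicate 2 (0.17). INSIG1 had 357 and 339 CPM after MPS1i and 316 and 313 CPM after DMSO (0.14 ± 0.05, adjusted p = 0.017), and lost it without MAVS MPS1i replicate 1 (0.09), MAVS DMSO replicate 1 (0.13) or MAVS DMSO replicate 2 (0.12). Both were higher in both treated libraries. PMVK had 7.69 and 7.96 CPM after MPS1i and 11.7 and 10.1 CPM after DMSO (-0.48 ± 0.12, adjusted p = 0.0027), and lost its call without MAVS DMSO replicate 1 (-0.39). SREBF1 had 117 and 126 CPM after MPS1i and 149.7 and 139 CPM after DMSO (-0.25 ± 0.09, adjusted p = 0.048), and lost it without any 1 of the 4 MAVS libraries (-0.32 to -0.22). IDI1, with 389.8 and 381 CPM after MPS1i and 353 and 379 CPM after DMSO, was not called (0.07 ± 0.06), nor was ABCG1, with 7.33 and 6.91 CPM after MPS1i and 7.46 and 6.54 CPM after DMSO (0.01 ± 0.14). The ABCG1 groups overlapped. HSD17B7 (0.41 ± 0.10) lost its call without MAVS DMSO replicate 2 (0.33) or MAVS MPS1i replicate 2 (0.34), and MYLIP (0.66 ± 0.16) without MAVS MPS1i replicate 1 (0.43). ACAT2 (-0.18 ± 0.06) lost it without MAVS DMSO replicate 2 (-0.18) or MAVS MPS1i replicate 1 (-0.15). DHCR7 (-0.21 ± 0.06) lost it without MAVS DMSO replicate 1 (-0.15) or MAVS MPS1i replicate 1 (-0.18), and TM7SF2 (-0.37 ± 0.11) without MAVS DMSO replicate 1 (-0.30) or MAVS MPS1i replicate 2 (-0.37). The last of the 10 is CH25H.

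**Figure D3:**
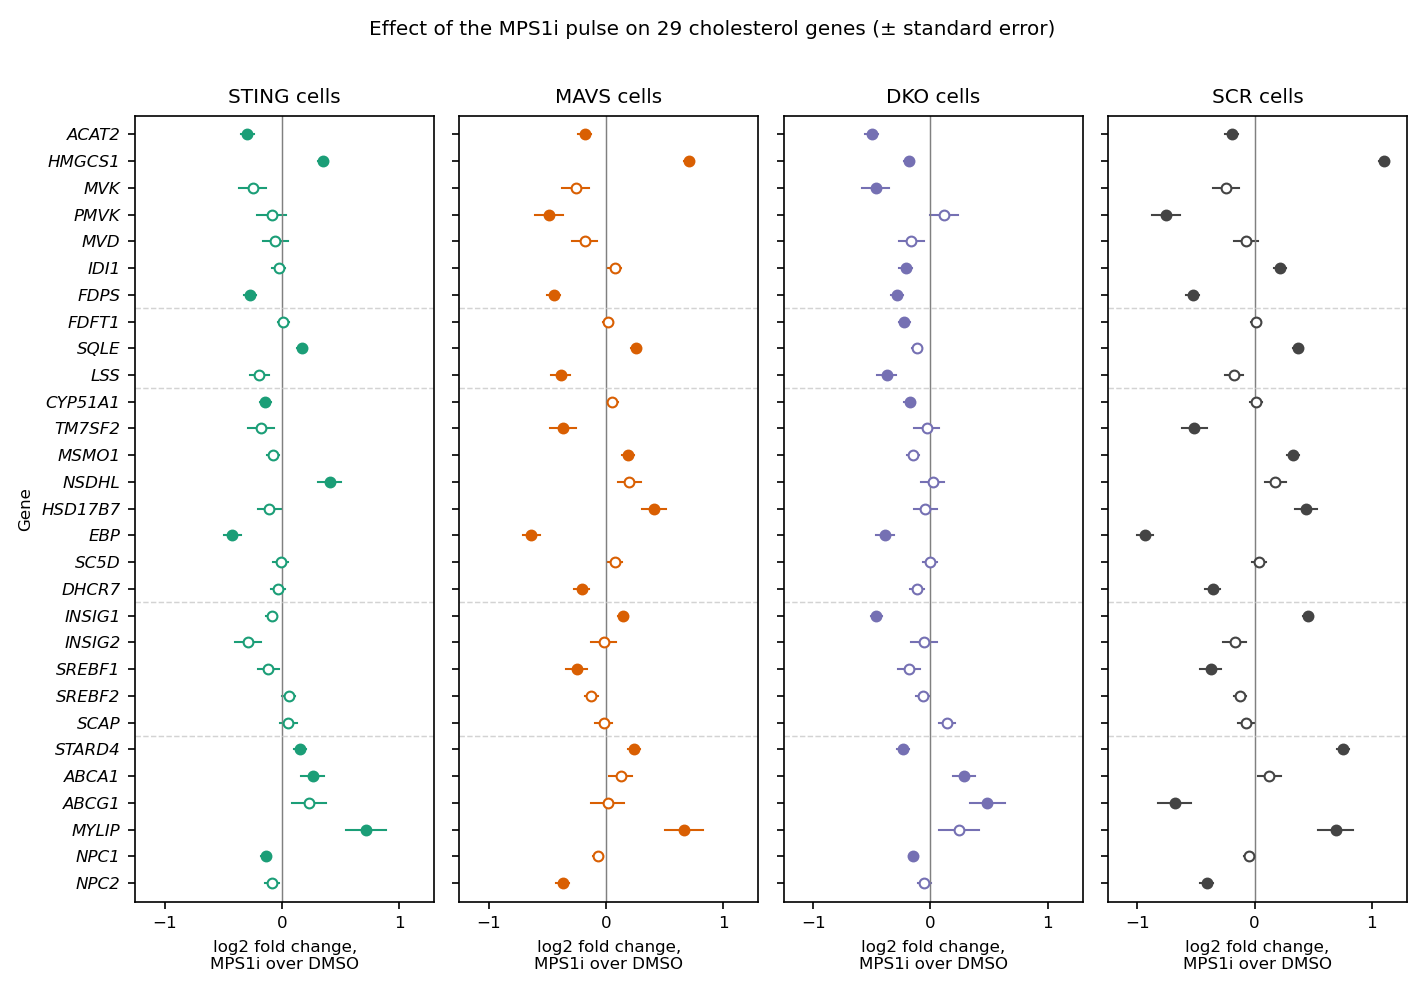
Log2 fold change after MPS1i over DMSO for the 29 genes other than CH25H (rows, by role) in the STING line, the MAVS line, the DKO line and SCR cells (panels), with bars of 1 standard error and filled points for called genes. In SCR cells the values span -0.93 (EBP) to 1.10 (HMGCS1), and in the DKO line -0.50 (ACAT2) to 0.49 (ABCG1).

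The dependence of the MPS1i effect on the line was tested as a difference of log2 changes, that in a labelled line minus that in SCR cells. The 3 differences and the SCR effect share the SCR libraries, so they are given side by side and not counted against each other. In the STING line 6 differences were above 0 and 7 below, against 9.97% and 9.55% of all tested genes (19.5% called). In the MAVS line 1 was above and 3 below, against 2.92% and 4.52% (7.44% called). In the DKO line 7 were above and 10 below, against 13.5% and 14.5% (28.0% called).

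Among the called genes, HMGCS1 had the largest negative difference, -1.29 ± 0.06 in the DKO line (adjusted p = 6.3e-15), with -0.75 ± 0.06 in the STING line (adjusted p = 1.3e-09) and -0.39 ± 0.06 in the MAVS line (adjusted p = 5.8e-05). STARD4 followed, at -0.99 ± 0.07 in the DKO line (adjusted p = 4.9e-11), -0.60 ± 0.07 in the STING line (adjusted p = 8.9e-07) and -0.52 ± 0.07 in the MAVS line (adjusted p = 1.3e-05). INSIG1 stood at -0.92 ± 0.06 in the DKO line (adjusted p = 2.7e-11), -0.54 ± 0.06 in the STING line (adjusted p = 9.2e-07) and -0.31 ± 0.06 in the MAVS line (adjusted p = 0.0023). For these 3 genes, a synthase, a sterol carrier and a sterol sensor, the difference in each line passed under every alternative. The lines share the SCR libraries, so these are not separate results. MSMO1 passed in the DKO line (-0.47 ± 0.07) and the STING line (-0.40 ± 0.07) under every alternative, and in the MAVS line it was not called (-0.14 ± 0.07). SQLE (-0.48 ± 0.06), IDI1 (-0.43 ± 0.08) and ACAT2 (-0.31 ± 0.08) held in the DKO line. Whether the DKO difference exceeds that of the STING line or the MAVS line was not tested.

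The called differences above 0 were led by the exporter ABCG1, at 1.17 ± 0.20 in the DKO line (adjusted p = 7.7e-05), 0.91 ± 0.20 in the STING line (adjusted p = 0.0016) and 0.70 ± 0.20 in the MAVS line (adjusted p = 0.029). The first 2 held under every alternative, and the third was lost without SCR DMSO replicate 1 (0.60), SCR MPS1i replicate 1 (0.55), MAVS DMSO replicate 2 (0.61), MAVS MPS1i replicate 1 (0.66) or MAVS MPS1i replicate 2 (0.74). The third was also lost with every library kept, under the DESeq2 Wald test. EBP (0.55 ± 0.10 in the DKO line, 0.51 ± 0.10 in the STING line) and NPC2 (0.36 ± 0.08 and 0.33 ± 0.08 in the same order) held in both lines. PMVK held in the DKO line (0.88 ± 0.17, adjusted p = 0.00022), and in the STING line (0.67 ± 0.17, adjusted p = 0.006) its call was lost without SCR MPS1i replicate 2 (0.55). EBP fell in all 4 lines, so here the difference is one of size.

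The remaining calls among the differences were lost without some libraries. In the DKO line these were FDFT1 (-0.23) without DKO MPS1i replicate 1 (-0.20), HSD17B7 (-0.48) without SCR MPS1i replicate 2 (-0.40), and TM7SF2 (0.48) without SCR MPS1i replicate 2 (0.42) or DKO MPS1i replicate 1 (0.41). FDPS (0.24) lost its call without DKO DMSO replicate 2 (0.17) or DKO MPS1i replicate 1 (0.22). DHCR7 (0.24) lost it without SCR DMSO replicate 1 or DKO DMSO replicate 2 (both 0.19), SCR MPS1i replicate 1 (0.27), SCR MPS1i replicate 2 (0.26) or DKO MPS1i replicate 2 (0.20). CYP51A1 (-0.19) lost it without any 1 of the 8 libraries of the DKO line and SCR cells other than DKO DMSO replicate 1 (-0.19 to -0.11). With every library kept, CYP51A1 also lost its call with DESeq2 size factors, no filter, the DESeq2 Wald test or only the compared groups. TM7SF2 lost its call under the DESeq2 Wald test, and FDPS and DHCR7 with only the compared groups. In the STING line HSD17B7 (-0.54) lost its call without STING DMSO replicate 2 (-0.41). IDI1 (-0.24) lost it without SCR DMSO replicate 1 (-0.20), SCR MPS1i replicate 1 (-0.23), SCR MPS1i replicate 2 (-0.24), STING DMSO replicate 1 (-0.23), STING DMSO replicate 2 (-0.27) or STING MPS1i replicate 2 (-0.22). SQLE (-0.20) lost it without SCR DMSO replicate 1 (-0.16), SCR MPS1i replicate 2 (-0.18), STING DMSO replicate 2 (-0.19) or STING MPS1i replicate 2 (-0.18). With no filter SQLE lost it too (-0.18). FDPS (0.26) lost it without SCR MPS1i replicate 2 (0.23), STING DMSO replicate 2 (0.21) or STING MPS1i replicate 2 (0.23), and DHCR7 (0.32) without SCR DMSO replicate 1 (0.26), STING DMSO replicate 2 (0.27) or STING MPS1i replicate 2 (0.30).

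**Figure D4:**
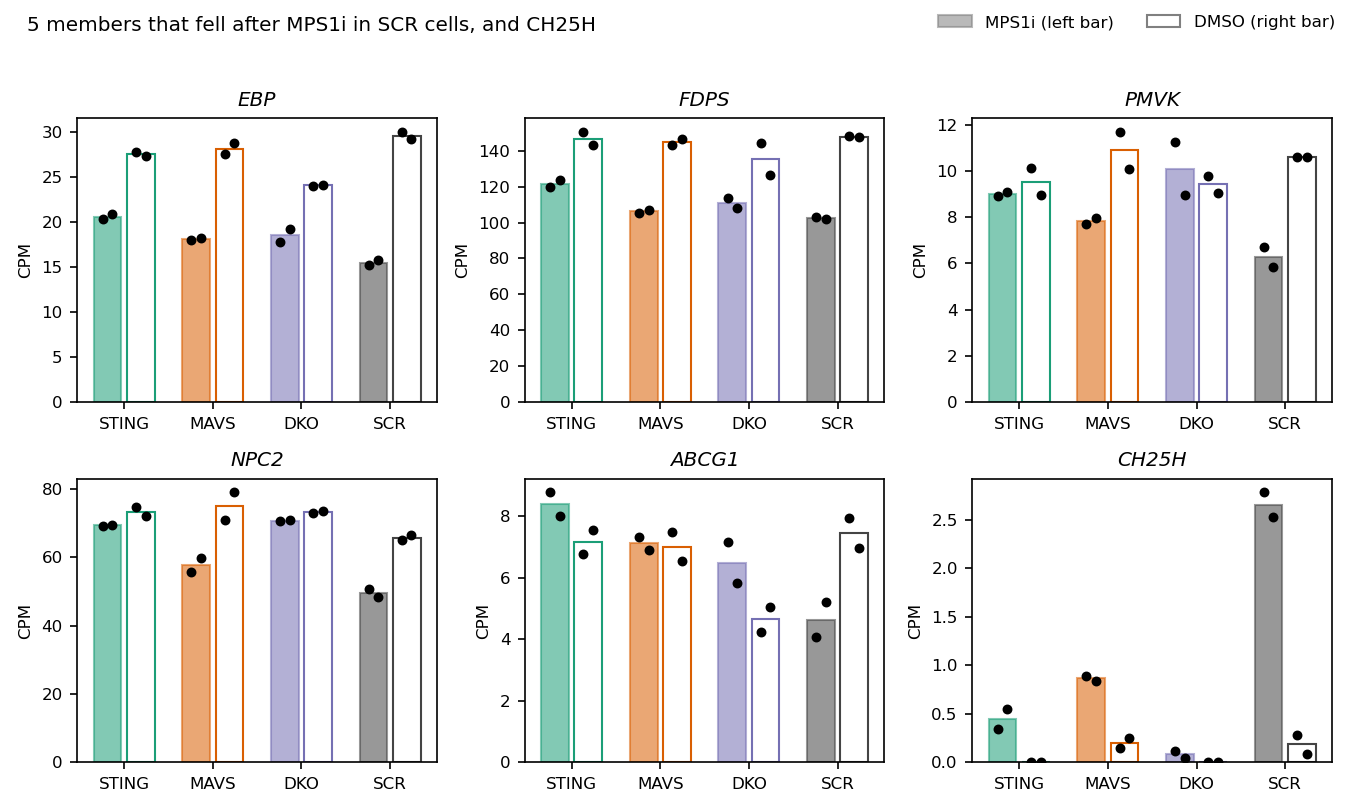
Level in CPM (y axis, from 0) of 5 genes that fell after MPS1i in SCR cells, and of CH25H, in the STING line, the MAVS line, the DKO line and SCR cells. Filled bars are MPS1i means, open bars DMSO means, and points the 2 libraries of each group. EBP is lower after MPS1i in all 4 lines, whereas ABCG1 is higher after MPS1i in the DKO line (7.15 and 5.82 against 4.25 and 5.05 CPM) and lower in SCR cells (4.08 and 5.19 against 7.95 and 6.97 CPM).

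The lines were then compared within each treatment. After MPS1i, 10 of the 30 genes were higher and 12 lower in the DKO line than in SCR cells, against 22.6% and 22.4% of all tested genes (45.1% called). Apart from CH25H, which is given in counts further on, the steepest difference was in STARD4, at 136 and 134 CPM in the DKO line and 367 and 388 CPM in SCR cells (-1.48 ± 0.05, adjusted p = 4.1e-18). HMGCS1 (-0.84 ± 0.04), INSIG1 (-0.73 ± 0.05), MYLIP (-0.75 ± 0.16), CYP51A1 (-0.47 ± 0.05), MSMO1 (-0.31 ± 0.05), IDI1 (-0.23 ± 0.06) and SQLE (-0.18 ± 0.04) were also lower under every alternative. CH25H was lower under each alternative in which it was tested. The lysosomal transporters NPC2 (0.51 ± 0.06) and NPC1 (0.39 ± 0.04), the exporter ABCA1 (0.74 ± 0.10), and the enzymes TM7SF2 (0.78 ± 0.11), PMVK (0.70 ± 0.12) and DHCR7 (0.35 ± 0.06) were higher under every alternative. The other 7 calls were lost without some libraries. ABCG1 (0.49) lost its call without SCR MPS1i replicate 1 (0.34) or DKO MPS1i replicate 1 (0.33), EBP (0.25) without SCR MPS1i replicate 1 (0.23) or DKO MPS1i replicate 2 (0.21), and SC5D (0.18) without SCR MPS1i replicate 1 (0.13) or DKO MPS1i replicate 1 (0.16). SCAP (0.24) lost it without DKO MPS1i replicate 1 (0.21) and ACAT2 (-0.22) without SCR MPS1i replicate 2 (-0.17) or DKO MPS1i replicate 2 (-0.15). HSD17B7 (-0.25) lost it without SCR MPS1i replicate 2 (-0.17), DKO MPS1i replicate 1 (-0.26) or DKO MPS1i replicate 2 (-0.22), and FDFT1 (-0.11) without any 1 of these 4 libraries (-0.13 to -0.09). With every library kept, HSD17B7 lost its call with no filter or under the DESeq2 Wald test, and FDFT1 with no filter.

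Some of these contrasts were already present under DMSO, where 11 of the 30 genes were higher and 6 lower in the DKO line than in SCR cells, against 15.8% and 15.3% of all tested genes (31.1% called). HMGCS1 (0.44 ± 0.04, adjusted p = 8.4e-09), SQLE (0.30 ± 0.04), ABCA1 (0.58 ± 0.10) and NPC1 (0.49 ± 0.04, adjusted p = 7.5e-10) were higher, and STARD4 (-0.50 ± 0.05, adjusted p = 3.1e-08), ABCG1 (-0.68 ± 0.14), EBP (-0.30 ± 0.07) and CYP51A1 (-0.28 ± 0.05) lower, under every alternative. HMGCS1 and SQLE were thus higher in the DKO line than in SCR cells under DMSO and lower after MPS1i, and ABCG1 was lower under DMSO. STARD4 and CYP51A1 were lower, and ABCA1 and NPC1 higher, under both treatments. Without SCR DMSO replicate 1, IDI1 (0.20, then 0.16), INSIG1 (0.18, then 0.15), MSMO1 (0.16, then 0.11), SC5D (0.21, then 0.13) and SREBF1 (-0.33, then -0.25) lost their calls. Without DKO DMSO replicate 2, IDI1 (0.07), SC5D (0.14) and SREBF1 (-0.19) lost theirs as well. LSS (0.23) lost its call without SCR DMSO replicate 2 (0.17) or DKO DMSO replicate 1 (0.11), and NPC2 (0.15) and TM7SF2 (0.30) without any 1 of the 4 libraries (0.13 to 0.16 and 0.25 to 0.31). Some calls were also lost with every library kept. LSS, TM7SF2 and NPC2 lost theirs under the DESeq2 Wald test, TM7SF2 and NPC2 with no filter, and NPC2 with DESeq2 size factors. IDI1, LSS, TM7SF2, MSMO1 and NPC2 lost theirs with only the compared groups.

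**Figure D5:**
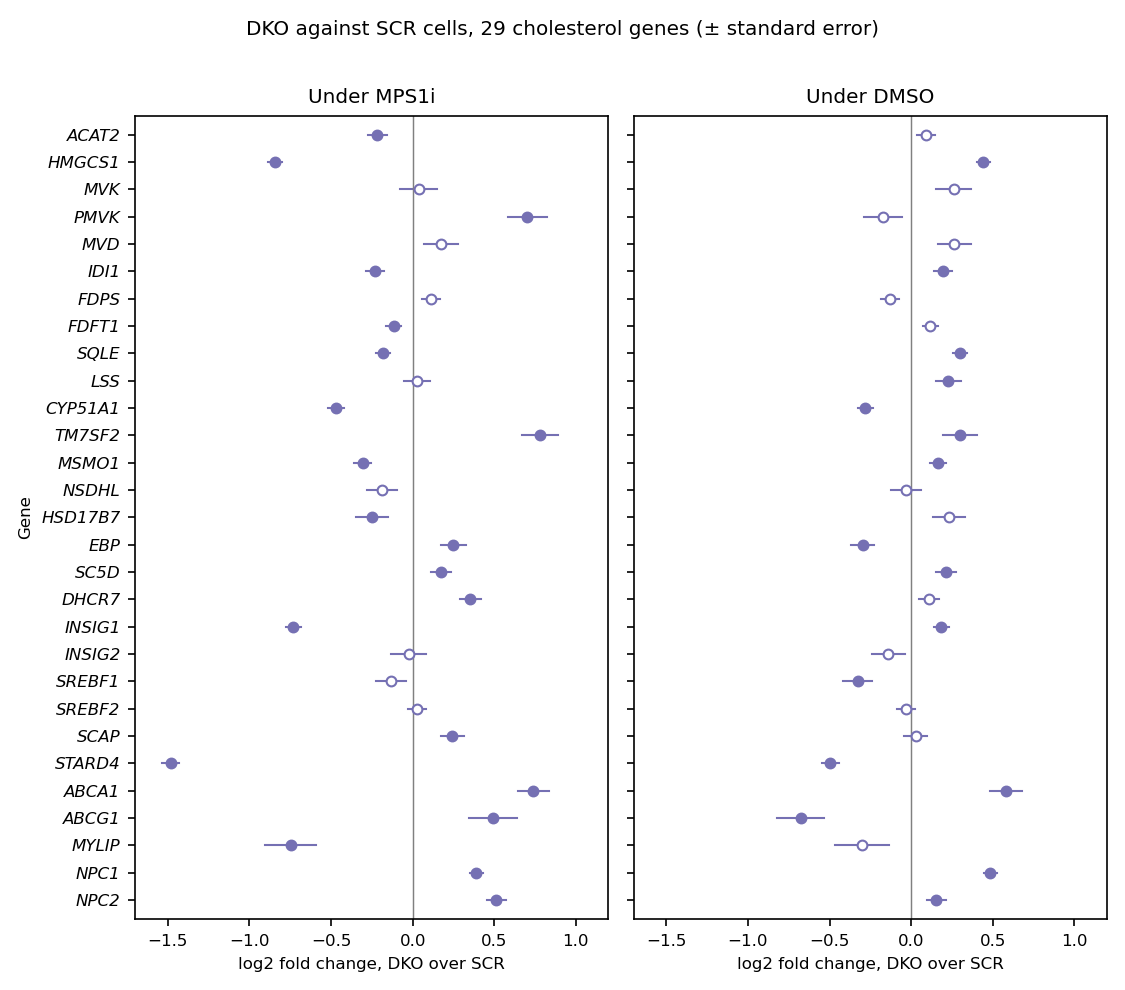
Log2 fold change of the DKO line over SCR cells (x axes) for the 29 genes other than CH25H (rows), after MPS1i (left) and under DMSO (right), with bars of 1 standard error and filled points for called genes. STARD4 lies at -1.48 after MPS1i and -0.50 under DMSO, and HMGCS1 at -0.84 after MPS1i and 0.44 under DMSO.

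The STING line had 13 of the 30 genes higher and 7 lower than SCR cells after MPS1i, against 15.8% and 17.3% of all tested genes (33.1% called). HMGCS1 (-0.50 ± 0.04), STARD4 (-0.74 ± 0.05) and INSIG1 (-0.36 ± 0.05) were lower under every alternative, and CH25H under each in which it was tested. ABCG1 (0.85 ± 0.14), TM7SF2 (0.62 ± 0.11), ABCA1 (0.58 ± 0.10), PMVK (0.52 ± 0.12), NPC2 (0.48 ± 0.06), DHCR7 (0.46 ± 0.06), EBP (0.41 ± 0.07), FDPS (0.25 ± 0.05) and NPC1 (0.17 ± 0.04) were higher under every alternative. Without SCR MPS1i replicate 2, the calls of MVD (0.28, then 0.23), LSS (0.26, then 0.23), SREBF2 (0.20, then 0.17), SCAP (0.19 in both), IDI1 (-0.15, then -0.13), CYP51A1 (-0.18, then -0.15) and MSMO1 (-0.18, then -0.11) were lost. The same 7 calls were lost without STING MPS1i replicate 2, at 0.18, 0.22, 0.16, 0.19, -0.12, -0.14 and -0.14 in that order of genes. IDI1 and SCAP also lost theirs without SCR MPS1i replicate 1 (-0.15 and 0.20) or STING MPS1i replicate 1 (-0.16 and 0.20). MVD and SCAP lost theirs with every library kept, under the DESeq2 Wald test. Under DMSO, 8 genes were higher and 1 lower, against 4.70% and 5.47% of all tested genes (10.2% called). HMGCS1 (0.25 ± 0.04, adjusted p = 0.00029) and NPC1 (0.26 ± 0.04, adjusted p = 0.00011) were higher under every alternative. Without SCR DMSO replicate 1, SQLE (0.19, then 0.16), MSMO1 (0.22, then 0.17), INSIG1 (0.18, then 0.15) and ABCA1 (0.44, then 0.33) lost their calls. ABCA1 (0.35) and HSD17B7 (0.42, then 0.30) lost theirs without STING DMSO replicate 2. LSS (0.28) lost its call without SCR DMSO replicate 2 (0.22) or STING DMSO replicate 1 (0.24), and INSIG1 without STING DMSO replicate 1 (0.19).

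The MAVS line had the fewest calls against SCR cells. After MPS1i, 7 of the 30 genes were higher and 4 lower, against 7.46% and 8.47% of all tested genes (15.9% called). HMGCS1 (-0.39 ± 0.04, adjusted p = 1.3e-07), STARD4 (-0.55 ± 0.05, adjusted p = 7.2e-09) and INSIG1 (-0.25 ± 0.05, adjusted p = 0.00026) were lower under every alternative. None of the 7 higher calls held throughout. ABCG1 (0.61, then 0.46), NPC1 (0.17, then 0.15), ABCA1 (0.37, then 0.33), EBP (0.22, then 0.19) and DHCR7 (0.21 in both) lost theirs without SCR MPS1i replicate 1. TM7SF2 (0.41, then 0.32), NPC2 (0.22, then 0.18), EBP (0.25) and DHCR7 (0.20) lost theirs without SCR MPS1i replicate 2. Without MAVS MPS1i replicate 2, TM7SF2 (0.42), ABCA1 (0.37), NPC2 (0.17), EBP (0.21) and DHCR7 (0.16) lost theirs, and without MAVS MPS1i replicate 1, TM7SF2 (0.39) and EBP (0.23). EBP also lost its call with every library kept, with no filter or under the DESeq2 Wald test. Under DMSO, ABCA1, NPC1 and NPC2 were higher and 0 lower, against 3.98% and 2.57% of all tested genes (6.56% called). ABCA1 (0.37, adjusted p = 0.026) lost its call without SCR DMSO replicate 1 (0.27) or MAVS DMSO replicate 2 (0.28), NPC1 (0.19, adjusted p = 0.0045) without MAVS DMSO replicate 1 (0.18), and NPC2 (0.19, adjusted p = 0.049) without SCR DMSO replicate 1 (0.17), SCR DMSO replicate 2 (0.20) or MAVS DMSO replicate 2 (0.12). Both ABCA1 and NPC2 lost theirs with every library kept, under the DESeq2 Wald test, and NPC2 also with DESeq2 size factors or no filter. HMGCS1 under DMSO was at 399.9 and 413 CPM in the MAVS line and 410.4 and 403 CPM in SCR cells, which overlapped.

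CH25H was near the detection limit in every DMSO library and is given in counts. It had 9 and 16 counts after MPS1i and 0 in both DMSO libraries of the STING line, 30 and 32 after MPS1i and 4 and 5 after DMSO in the MAVS line, 4 and 1 after MPS1i and 0 in both DMSO libraries of the DKO line, and 99 and 111 after MPS1i and 14 and 3 after DMSO in SCR cells. It passed the count filter through its treated libraries, and its adjusted p are given as a description. In SCR cells the log2 change was 3.72 ± 0.42 (adjusted p = 8.4e-08), and with no filter other than 1 count in any library it was 3.69 (adjusted p = 3.5e-16). In the MAVS line it was 2.16 ± 0.52 (adjusted p = 0.0021), and this call did not pass without MAVS DMSO replicate 1 (1.73). In the STING line it was at least 3.33-fold higher after MPS1i, counting 3 counts per library for the libraries at 0 (adjusted p = 0.00025). In the DKO line the mean of each treatment was under that floor, although 1 treated library, with 4 counts, was just above it. No fold is given (adjusted p = 0.058). After MPS1i, CH25H was lower than in SCR cells in all 3 other lines, with log2 differences of -2.54 ± 0.40 for STING (adjusted p = 2e-05) and -1.61 ± 0.35 for MAVS (adjusted p = 0.0021). The DKO line, with a mean under the floor, averaged 0.0817 CPM against 2.66 CPM in SCR cells, and no fold is given (adjusted p = 4.4e-08). Under DMSO it was called lower in the STING line (adjusted p = 0.014) and in the DKO line (adjusted p = 0.0017) than in SCR cells. The SCR DMSO library with 3 counts stood at the floor, so no fold is given. The first of these calls was lost without SCR DMSO replicate 1 (adjusted p = 0.17), STING DMSO replicate 1 (0.13) or STING DMSO replicate 2 (0.095), and the second without SCR DMSO replicate 1 (0.051). The difference of its MPS1i effect from that in SCR cells was not called in any line, with adjusted p of 0.25 in the STING line, 0.26 in the MAVS line and 0.56 in the DKO line. With 0 counts under DMSO in the STING and DKO lines, the log2 change there has no upper bound. The lack of a call therefore does not show that CH25H responded alike in the lines. The floor covers counting error only.

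Other genes of the same regulation were described from lists of known function, beside the shares of all tested genes given above. Of 14 tested genes of fatty acid synthesis, most of them SREBP-1 targets, 0 rose and 10 fell in SCR cells (median log2 change -0.38). They were led by the desaturases SCD (-0.86 ± 0.04) and FADS1 (-0.74 ± 0.04) and the carboxylase ACACA (-0.67 ± 0.04). This list also had 6 falls in the STING line, 10 in the MAVS line and 8 in the DKO line and 0 rises in each of them, and the 8 were 4 without DKO MPS1i replicate 1 and 3 without DKO MPS1i replicate 2. SCD changed by -0.23 ± 0.04 in the STING line, -0.61 ± 0.04 in the MAVS line and -0.25 ± 0.04 in the DKO line. In SCR cells these 10 transcripts fell in the libraries in which 9 of the 30 members rose, HMGCS1, SQLE, INSIG1 and STARD4 among them. In the same libraries 9 members fell, among them FDPS, EBP, DHCR7 and PMVK. Of 10 genes of SREBP processing and sterol-regulated degradation, 2 rose and 7 fell in SCR cells. SPRING1, a factor of SREBP cleavage that the table lists under an older symbol, changed by -0.72 ± 0.07. ERLIN2, which binds SREBP and SCAP complexes in the endoplasmic reticulum, changed by -0.56 ± 0.05, and the ubiquitin ligase RNF139 by -0.43 ± 0.06. In the DKO line 1 of the 10 rose and 1 fell, and SPRING1 (-0.03 ± 0.07), ERLIN2 (0.04 ± 0.06) and RNF139 (0.08 ± 0.06) were not called. Of 6 tested LXR receptors, partners and targets, 2 rose and 2 fell in SCR cells, with NR1H2, which encodes LXR-beta, at 0.45 ± 0.07 and the partner RXRA at -0.24 ± 0.06. In the DKO line 0 rose and 1 fell. The LXR list and its targets thus moved in both directions in SCR cells, as did MYLIP and ABCG1.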

How the data were processed

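RNA from 16 libraries of NCI-H1944 cells (8 groups, 2 libraries each) was measured by poly(A) sequencing with a stranded kit. Raw counts per gene were deposited by the authors, with no normalization, per the file headers. Per the submitters' processing notes, Trim Galore, cutadapt, Trimmomatic, STAR and featureCounts were used with GRCh38/hg38. Their versions, the strand setting and the handling of reads with several matches are not given in the sources used here. Genes overlapping on the opposite strand (ACAT2 with TCP1 and SOD2, MVK with MMAB, SREBF1 with RAI1, NPC1 with RMC1, NPC2 with ISCA2), on the same strand (TM7SF2 with VPS51), or with pseudogenes (FDPS, IDI1, CYP51A1, HSD17B7) may share reads.

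Counts were fitted in R 4.3.3 with edgeR 4.0.16: filterByExpr (minimum count 10, minimum total 15), TMM, robust quasi-likelihood F-tests (two-sided) on 1 mean per group (8 residual degrees of freedom), and Benjamini-Hochberg adjustment over 17950 genes within each of 13 comparisons. Standard errors are the absolute log2 change over the square root of F. CPM carry TMM scaling and SD over 2 libraries. Total counts ran from 19893784 to 49769938 per library, and a count of 0 allows up to 3 counts in that library.

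Alternatives were DESeq2 1.42.0 (size factors, Wald test), other filters, only the compared groups, a replicate block, and leaving out each library. Residuals of libraries with equal replicate numbers correlated at -0.13 to 0.18 (median 0.018) over 28 pairs of groups, so the numbers were not taken as pairs. The scripts were tested on simulated counts. Promoter windows are RefSeq (GRCh38.p14), matched by symbol for 26 of 30 genes.

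The 30 members, the further lists and the rules were chosen with earlier results of these data known. Values in every library are given for called members with the 2 smallest adjusted p in each role in SCR cells and for those with the 10 smallest over the differences between treatment effects, and up to 3 genes of each further list are named by adjusted p in SCR cells. A gene that this rule would name is not reported here.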

Additional observations from a re-analysis of the deposited data

Results flagged for a closer look

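The MPS1i effect differed from that in SCR cells in 34 tests of a gene in a labelled line, each called by edgeR's quasi-likelihood test of the difference with Benjamini-Hochberg adjustment. These were 13 of 30 genes in the STING line, 4 of 30 in the MAVS line and 17 of 30 in the DKO line. Of all tested genes, 19.5%, 7.44% and 28.0% were called in the same order. Values are log2 changes in the labelled line minus those in SCR cells. The causes were not tested.

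Below 0 in the DKO line were HMGCS1 (-1.29), STARD4 (-0.99), INSIG1 (-0.92), SQLE (-0.48), HSD17B7 (-0.48), MSMO1 (-0.47), IDI1 (-0.43), ACAT2 (-0.31), FDFT1 (-0.23) and CYP51A1 (-0.19). Above 0 in the DKO line were ABCG1 (1.17), PMVK (0.88), EBP (0.55), TM7SF2 (0.48), NPC2 (0.36), DHCR7 (0.24) and FDPS (0.24). In this line HSD17B7, FDFT1, CYP51A1, TM7SF2, DHCR7 and FDPS lost their calls under at least 1 alternative.

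Below 0 in the STING line were HMGCS1 (-0.75), STARD4 (-0.60), HSD17B7 (-0.54), INSIG1 (-0.54), MSMO1 (-0.40), IDI1 (-0.24) and SQLE (-0.20). Above 0 in the STING line were ABCG1 (0.91), PMVK (0.67), EBP (0.51), NPC2 (0.33), DHCR7 (0.32) and FDPS (0.26). Here HSD17B7, IDI1, SQLE, PMVK, DHCR7 and FDPS lost their calls under at least 1 alternative.

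In the MAVS line STARD4 (-0.52), HMGCS1 (-0.39) and INSIG1 (-0.31) were below 0, and ABCG1 (0.70) was above 0. The last call was lost when any 1 of 5 libraries was left out, and under the DESeq2 Wald test.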

How the results depend on the processing

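Of 177 calls of the 30 genes in 13 comparisons, 100 passed under every alternative in which the gene was tested and 77 did not, and no called change reversed its direction. The 77 include CH25H in the MAVS line against SCR cells after MPS1i. It was counted there only because the DESeq2 Wald test gave it no adjusted p. With the replicate block, which was not backed by pairing of the libraries, 389 of 390 results for single genes kept their side of the threshold and 1 more was called; the counts of calls stayed at 18 for MPS1i in SCR and 14 for MPS1i in the DKO line. With only the compared groups, 8 rather than 14 genes were called for MPS1i in the DKO line, with 0 rather than 2 rises. The calls lost there were HMGCS1, IDI1, CYP51A1, NPC1 and the 2 rises, ABCA1 and ABCG1. For the DKO line against SCR cells under DMSO, 11 rather than 17 genes were called. Fits of only the compared groups have fewer residual degrees of freedom, but 21 rather than 18 genes were called for MPS1i in SCR. For the DKO line against SCR cells after MPS1i, 24 rather than 22 were called. The difference of the DKO effect from the SCR effect had 14 rather than 17 calls. The 2 DKO DMSO libraries were the least alike of any group, with a mean chi-square per gene of 9.5 against 2.81 to 6.12 in the other groups. The part of this spread in the lost calls was not tested. With the DESeq2 Wald test, 12 rather than 14 genes were called for MPS1i in the DKO line, again with 0 rises. It called 1 rather than 3 genes for the MAVS line against SCR cells under DMSO, and the cause was not tested.

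Leaving out 1 library at a time left 18 to 20 calls for MPS1i in SCR, 8 to 10 (of 12) in the STING line, 11 to 14 (of 17) in the MAVS line and 9 to 14 (of 14) in the DKO line. It left 1 to 2 (of 3) for the MAVS line, 6 to 8 (of 9) for the STING line and 10 to 15 (of 17) for the DKO line against SCR cells under DMSO, and 6 to 9 (of 11), 13 to 19 (of 20) and 17 to 19 (of 22) in the same order after MPS1i. For the differences from the SCR effect it left 3 to 4 (of 4) in the MAVS line, 8 to 14 (of 13) in the STING line and 13 to 19 (of 17) in the DKO line. Here the lone library of a group is assumed to vary like the other groups.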

Other observations

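Beside cholesterol itself, the mevalonate pathway feeds the isoprenoid branch, and sterols are stored as esters. Of 12 isoprenoid genes, 1 rose and 5 fell after MPS1i in SCR cells (median log2 change -0.07), against 26.0% of all tested genes that rose and 24.0% that fell, so the number called was that of the background (50%). The falls were led by COQ2, an enzyme of ubiquinone synthesis (-0.59 ± 0.09), RABGGTB, a subunit of the Rab prenyl transferase (-0.32 ± 0.06), and PGGT1B, a subunit of a protein prenyl transferase (-0.26 ± 0.05). COQ2 changed by -0.43 ± 0.10 in the STING line, -0.42 ± 0.09 in the MAVS line and -0.25 ± 0.09 in the DKO line, where it was not called (adjusted p = 0.083). Of 12 tested genes of sterol esterification, transfer and oxysterol synthesis, 5 rose and 4 fell in SCR cells, beside the same shares of all tested genes. The lysosomal acid lipase LIPA rose by 0.69 ± 0.05 and the cholesteryl ester hydrolase NCEH1 by 0.71 ± 0.05, and TMEM97, a binding partner of NPC1, changed by -0.39 ± 0.06. LIPA rose in the STING line (0.46 ± 0.05) and the MAVS line (0.42 ± 0.05), and in the DKO line it was not called (-0.13 ± 0.05, adjusted p = 0.079). NCEH1 was called higher in all 4 lines, at 0.57 ± 0.05 in the STING line, 0.41 ± 0.05 in the MAVS line and 0.31 ± 0.05 in the DKO line.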
